A study of Mus musculus with 12 samples.

Results

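The genes described here are 37 genes of mitosis and of the G2/M transition, taken by symbol from the 57010 Ensembl gene IDs counted in each library. The rule takes them by name, though the list was drawn up with earlier results of these data known, and all 37 were matched to an ID. The filter on low counts, applied to the whole table, kept 35 of them among 14253 tested genes. Kif4 and Prc1, a chromosome-bound kinesin and a protein that bundles the microtubules of the central spindle, were listed at 0 in all 12 libraries.

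Counts came from poly(A) RNA of primary mouse chondrocytes, the cells that make and maintain cartilage. Cells of 3 groups were sequenced, each with 4 libraries and all with the genotype given as wild type: Control, WT and SIRT5F101L mutant. WT cells were transfected with a wild-type plasmid and SIRT5F101L cells with a plasmid for the mutant form of SIRT5, a sirtuin that strips malonyl, succinyl and glutaryl groups from lysines, largely in mitochondria. What the Control cells received, the promoter on the plasmids, the share of cells that took them up and the age of the mice are not given in the sources used here. Transfection, the plasmid and the protein it encodes therefore cannot be told apart in a comparison with Control. Nothing in the labels says whether the 4 libraries of a group came from separate cultures or animals, so the p-values measure only the spread between these libraries, which may be technical.

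Total counts ran from 15095357 to 24242139 per library. Levels are given as CPM, the counts of a gene scaled to a common library total after TMM scaling. Sirt5 stood at 0.688 ± 0.169 CPM (SD, n = 4) in Control, 0.383 ± 0.229 in WT and 0.72 ± 0.346 in SIRT5F101L, from 1 to 19 counts per library, and no rise was detectable at this depth. The sequence of the plasmids is not given in the sources used here, so whether their transcript would be counted under the mouse Sirt5 ID is not known. All 2414 IDs of the X chromosome, where Kif4 lies, and all 37 mitochondrial IDs were listed at 0, which says nothing about their expression. Prc1 lies on chromosome 7, and its 0 says as little. SIRT5F101L replicate 1 stood apart from the other libraries of its group, and results that rest on it are given with and without it. Chondrocyte markers were present in every library, with Col2a1, the main cartilage collagen, at 6710 ± 690 CPM in Control, 1660 ± 56.2 in WT and 1310 ± 95.1 in SIRT5F101L.

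Cells enter mitosis when CDK1, bound to cyclin A or B, is switched on by CDC25 phosphatases. Polo-like and Aurora kinases then drive spindle assembly, kinetochores attach chromosomes to microtubules, and the spindle checkpoint holds back the anaphase-promoting complex until attachment is complete. Many of these genes are transcribed late in the cell cycle, when B-MYB and FOXM1 join the MuvB complex at their promoters. In resting cells the same complex, with an E2F and an RB relative, keeps them off. Chondrocytes divide in the growth plate and in young cartilage and rarely in adult articular cartilage.

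Promoter windows of 250 bases before to 50 bases after the RefSeq start (build GRCm38.p6) were matched by symbol for 30 of the 37 genes. Those of Aurkb, Kif20a, Tpx2, Foxm1, Cdc25c, Ccna2 and Incenp were not matched. Both strands were searched for TTTGAA, the core of the cell cycle homology region that MuvB binds, and for CCAAT, the box bound by NF-Y. TTTGAA was present in 22 of the 30 windows (73.333%), against 18.105% of all 27025 windows. At least 2 CCAAT boxes were present in 16 (53.333%, against 12.159%), and both features in 14 (46.667%, against 2.187%). The motifs did not overlap each other in any of the 30. A match is a string of letters and does not show that a factor was bound.

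The stretches below lie before the start and are free of annotated exons. They are shown because they hold both motifs upstream (Ccnb2, Top2a, Cdk1, Mki67) or repeated CCAAT boxes alone (Ttk, Hmmr) in genes with small to large changes. Each reads 5′ to 3′ on the gene's strand, with the motifs in capitals. A motif on the other strand appears as its reverse complement. For the first motif that is TTCAAA. For the CCAAT box it reads ATTGG.
Ccnb2, chr9:70421555-70421731, minus strand: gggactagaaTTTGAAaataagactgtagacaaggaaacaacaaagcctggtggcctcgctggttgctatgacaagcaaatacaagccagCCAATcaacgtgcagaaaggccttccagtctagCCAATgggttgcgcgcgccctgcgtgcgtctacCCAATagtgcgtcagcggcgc
Top2a, chr11:99024190-99024426, minus strand: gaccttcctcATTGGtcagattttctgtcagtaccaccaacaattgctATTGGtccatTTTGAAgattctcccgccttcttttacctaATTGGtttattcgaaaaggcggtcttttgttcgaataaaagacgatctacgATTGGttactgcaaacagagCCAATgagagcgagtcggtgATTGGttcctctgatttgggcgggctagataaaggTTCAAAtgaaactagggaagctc
Cdk1, chr10:69352939-69353130, minus strand: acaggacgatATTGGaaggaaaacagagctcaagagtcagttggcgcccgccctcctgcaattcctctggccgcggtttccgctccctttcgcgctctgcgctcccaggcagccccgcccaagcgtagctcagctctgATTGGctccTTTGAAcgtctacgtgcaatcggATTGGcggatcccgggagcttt
Mki67, chr7:135716380-135716577, minus strand: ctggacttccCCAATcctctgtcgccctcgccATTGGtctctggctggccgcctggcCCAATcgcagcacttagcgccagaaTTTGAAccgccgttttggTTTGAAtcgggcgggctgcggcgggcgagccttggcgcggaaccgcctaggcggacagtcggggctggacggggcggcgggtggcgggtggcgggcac
Ttk, chr9:83834614-83834688, plus strand: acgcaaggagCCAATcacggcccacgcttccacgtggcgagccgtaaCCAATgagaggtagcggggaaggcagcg
Hmmr, chr11:40733438-40733619, minus strand: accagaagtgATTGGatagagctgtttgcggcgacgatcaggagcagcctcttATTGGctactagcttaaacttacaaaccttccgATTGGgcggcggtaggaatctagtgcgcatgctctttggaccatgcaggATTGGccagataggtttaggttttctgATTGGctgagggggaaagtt
The Top2a stretch held 6 CCAAT boxes, as many as the window of Ube2c and more than any other window of these genes. Mki67 had 2 copies of TTTGAA close together before its start. In Ttk and Hmmr the single TTTGAA of the window lay after the start, outside the stretch shown. Among the 22 windows with TTTGAA, 14 held a copy at or after the start and 8 held copies only before it. Neither motif was found in the windows of Nuf2, Nusap1, Melk, Mad2l1 and Birc5, and Bub1, Cenpe and Ccnb1 had CCAAT without TTTGAA.

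Every one of the 35 tested genes was higher in WT than in Control, and every one was higher in SIRT5F101L than in Control. Summed over the 37 genes, Control libraries averaged 514.2 ± 11.1 CPM (SD, n = 4), against 1128 ± 42.7 in WT and 1128 ± 29.9 in SIRT5F101L. The ranges were 504 to 530, 1100 to 1190 and 1100 to 1170 CPM, so the Control libraries lay apart from the others and both plasmid groups overlapped. In a bulk sample, more cycling cells, more of them in G2 or mitosis, and more of these RNAs per cell cannot be told apart.

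A gene was called when edgeR's quasi-likelihood F test gave it a Benjamini-Hochberg adjusted p under 0.05 over the 14253 genes. In WT against Control all 35 were called higher, where 28.7% of all tested genes were called higher and 56.8% in either direction. Their log2 fold changes ran from 0.64 to 1.65 with a median of 1.05, beside a median of -0.0129 over all tested genes. In SIRT5F101L against Control all 35 were again called higher, where 30.0% of all tested genes were called higher and 60.7% in either direction. There the range was 0.51 to 1.76 and the median 1.03, beside -0.0174 over all tested genes. The rise was at least 2-fold in 20 of the 35 in WT (9.10% of all tested genes were called higher by that much) and in 18 in SIRT5F101L (9.84%). Plasmid and Control libraries did not overlap for any of the 35 in either comparison, against 26.9% and 25.7% of all tested genes separated upward. Both comparisons use the same 4 Control libraries, so they are not independent of each other.

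**Figure D1:**
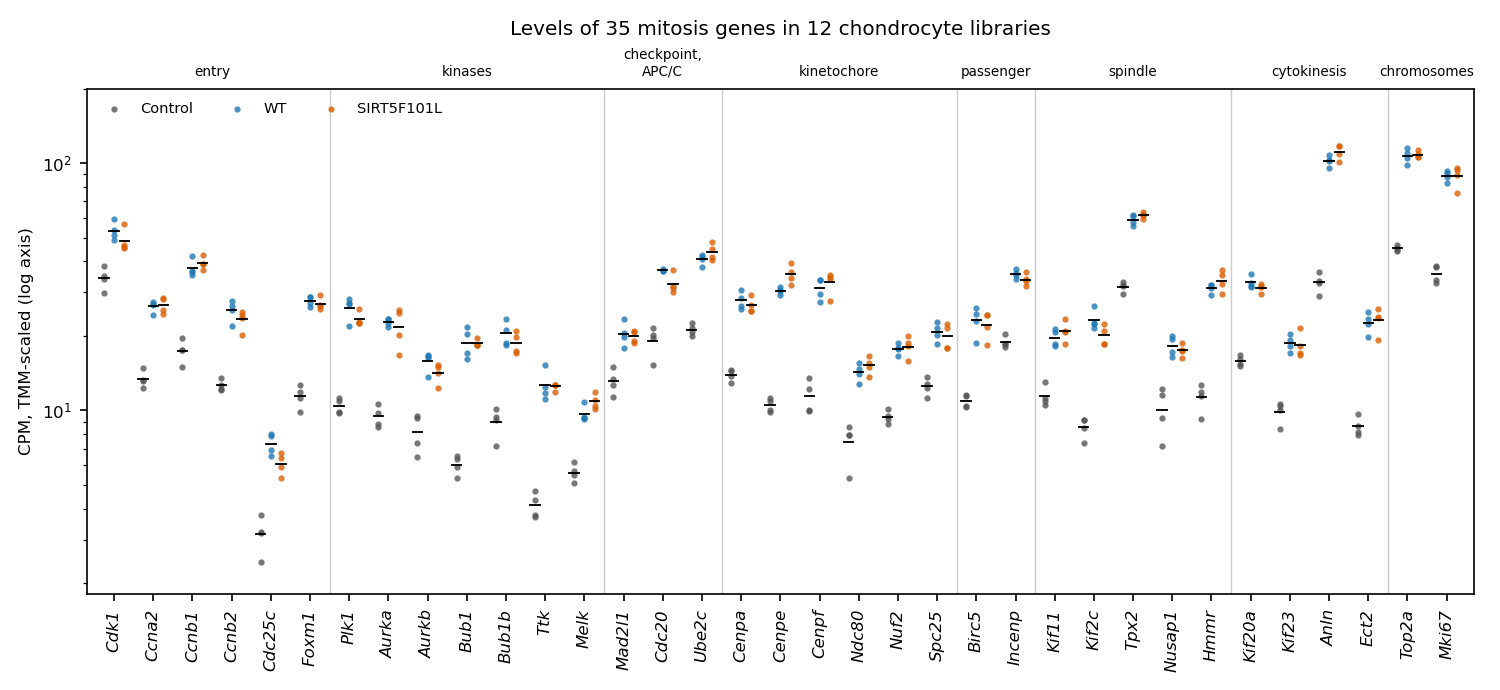
Levels of the 35 tested mitosis genes in the 12 libraries, on a log axis of TMM-scaled CPM. Points are single libraries (Control grey, WT blue, SIRT5F101L orange), short bars are group means over 4 libraries, and genes are ordered by role; Control points lie below all WT and SIRT5F101L points of the same gene.

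Among the genes of mitotic entry, Cdk1, the kinase that starts mitosis, rose least of all 35. It stood at 29.8, 34.0, 38.3 and 34.8 CPM in Control replicates 1 to 4. In WT it stood at 49.0, 53.7, 51.0 and 59.2 CPM, and in SIRT5F101L at 56.8, 46.6, 45.8 and 45.3. Control lay below the other groups, which overlapped, and SIRT5F101L replicate 1 was the highest of its group. The log2 fold changes were 0.64 and 0.51, with an SE of 0.09 each and edgeR adjusted p-values of 5.47e-06 and 7.48e-05.

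The cyclins that activate CDK1 had larger log2 fold changes than CDK1 itself, a difference between genes that was not tested. Ccnb1, cyclin B1, went from 17.4 ± 1.88 CPM in Control to 37.5 ± 3.11 in WT and 39.4 ± 2.36 in SIRT5F101L (log2 fold changes 1.11 and 1.18). Ccnb2, cyclin B2, was at 12.1 to 13.5 CPM in Control, 22 to 27.6 in WT and 20.2 to 24.9 in SIRT5F101L (1.01 and 0.88). Ccna2, cyclin A2, averaged 13.4, 26.3 and 26.7 CPM (0.98 and 1.0). The phosphatase Cdc25c, which removes the inhibitory phosphates from CDK1, was the least abundant of the 35. Its counts ran from 42 to 71 per Control library, or 2.44 to 3.78 CPM, against 6.51 to 8.02 CPM in WT and 5.32 to 6.73 in SIRT5F101L (1.21 and 0.95). Foxm1, the forkhead factor that drives transcription of this group, rose from 11.4 ± 1.2 CPM to 27.6 ± 1.26 and 27.0 ± 1.57 (1.28 and 1.24). Over these 6 genes the edgeR adjusted p ran from 1.71e-10 to 5.47e-06 in WT and from 2.40e-10 to 7.48e-05 in SIRT5F101L. In the GENCODE M21 models, 51.95% of the longest Ccnb1 transcript matches transcripts of other genes (at least 95% identity over 100 bases, either strand). Such matches cover 17.3% of Ccna2 and 23.65% of Cdc25c. Genes at the same place were not left out of the search. Ccnb1 exons overlap no other gene. Exons of Ccna2 and Cdc25c overlap a gene on the other strand over 12.49% and 12.67% of their bases. Their matches may therefore be this overlap and not a copy elsewhere. The strand setting of the counting is not given in the sources used here. The values of these 3 genes are uncertain to that extent.

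The mitotic and checkpoint kinases had a median log2 fold change of 1.27 in WT and 1.16 in SIRT5F101L, and all 7 were called in both. Bub1, a checkpoint kinase at kinetochores, had the largest change of the 35 in WT. Its levels were 5.92, 6.33, 5.32 and 6.55 CPM in Control, 20.4, 16.2, 17.1 and 21.7 in WT, and 18.4, 19.7, 18.3 and 18.3 in SIRT5F101L. The lowest plasmid library was far above the highest Control library, and the changes were 1.65 and 1.63, with an SE of 0.11 each and edgeR adjusted p-values of 1.11e-10 and 1.24e-10. Ttk, or MPS1, the kinase that starts checkpoint signalling, had a low Control level and a change nearly as large. It stood at 4.35, 4.71, 3.78 and 3.71 CPM in Control, 15.2, 12.4, 11.7 and 11.1 in WT, and 12.6, 12.7, 12.7 and 11.9 in SIRT5F101L (1.60 and 1.59, SE 0.13 each).

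Plk1, polo-like kinase 1, acts from mitotic entry to cytokinesis. It rose from 10.4 ± 0.756 CPM to 26 ± 2.8 in WT and 23.4 ± 1.49 in SIRT5F101L (1.32 and 1.16). Aurka, the Aurora kinase of the spindle poles, rose from 9.44 ± 0.942 to 22.7 ± 0.788 and 21.8 ± 4.08 CPM (1.27 and 1.20). Its SIRT5F101L libraries were spread widely, with 24.7 and 25.5 CPM in replicates 1 and 2 and 16.8 and 20.1 in replicates 3 and 4. Aurkb, the Aurora kinase of the chromosomal passenger complex, was at 8.16, 15.8 and 14.2 CPM (0.95 and 0.80). Bub1b, BUBR1, part of the complex that inhibits the anaphase-promoting complex, was at 8.96, 20.5 and 18.7 CPM (1.19 and 1.06). Melk, a kinase of the AMPK family expressed in dividing cells, was at 5.6, 9.69 and 10.9 CPM (0.79 and 0.95). The edgeR adjusted p was at most 7.02e-06 in WT and 1.41e-05 in SIRT5F101L for these kinases.

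Of the partners of the anaphase-promoting complex, the checkpoint adaptor Mad2l1, MAD2, was among the genes that rose least. It averaged 13.1 ± 1.55 CPM in Control, 20.4 ± 2.26 in WT and 19.9 ± 1.1 in SIRT5F101L (log2 fold changes 0.64 and 0.60). Cdc20, the activator that MAD2 holds back, stood at 20.1, 19.6, 21.5 and 15.3 CPM in Control. Its WT libraries were close together at 36.6, 36.7, 36.8 and 37.2 CPM, and its SIRT5F101L libraries were at 37, 31.8, 31.2 and 30.0 (0.94 and 0.76, SE 0.09 and 0.10). SIRT5F101L replicate 1 was thus within the WT range for this gene and the other 3 below it. Ube2c, the ubiquitin-conjugating enzyme of the complex, went from 21.2 ± 1.09 to 40.8 ± 1.98 and 43.8 ± 3.33 CPM (0.95 and 1.05). Exons of Ube2c overlap Tnnc2 on the other strand over 22.77% of their bases. Matches to transcripts of other genes cover 25.33% of its longest transcript and may be this same overlap. By edgeR all 3 passed, with adjusted p of at most 2.08e-05 in WT and 3.90e-05 in SIRT5F101L.

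Among the kinetochore genes the largest changes were in Cenpe, the kinesin that moves chromosomes to the spindle equator, and Cenpf, a protein of the outer kinetochore. Cenpe stood at 10, 9.83, 10.9 and 11.2 CPM in Control, 29.2, 30.5, 31.5 and 30.7 in WT, and 32.1, 39.3, 34.3 and 36.2 in SIRT5F101L. Its log2 fold changes were 1.54 and 1.76 (SE 0.09 and 0.08), with edgeR adjusted p-values of 4.1e-12 and 4.37e-13, and the second was the largest of the 35 in SIRT5F101L. Cenpf went from 11.4 ± 1.73 CPM to 31.1 ± 3.16 and 33.0 ± 3.45 (1.45 and 1.53).

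The histone H3 variant that marks centromeres, Cenpa, was at 13.9 ± 0.754, 27.9 ± 2.21 and 26.6 ± 1.98 CPM in the 3 groups (1.0 and 0.93). The NDC80 complex binds microtubules, and 3 of its subunits were among the members. Ndc80 was at 7.45, 14.3 and 15.2 CPM (0.94 and 1.03), Nuf2 at 9.41, 17.7 and 18.1 (0.91 and 0.95), and Spc25 at 12.5, 20.7 and 19.9 (0.73 and 0.67). The adjusted p by edgeR was at most 4.22e-06 and 1.16e-05 for the kinetochore genes. For the chromosomal passenger complex, which corrects wrong attachments, Birc5 (survivin) rose from 10.9 ± 0.622 to 23.1 ± 3.18 and 22.2 ± 2.8 CPM (1.08 and 1.03). Its scaffold Incenp rose from 18.9 ± 1.04 to 35.6 ± 1.38 and 33.8 ± 1.8 CPM (0.91 and 0.84).

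**Figure D2:**
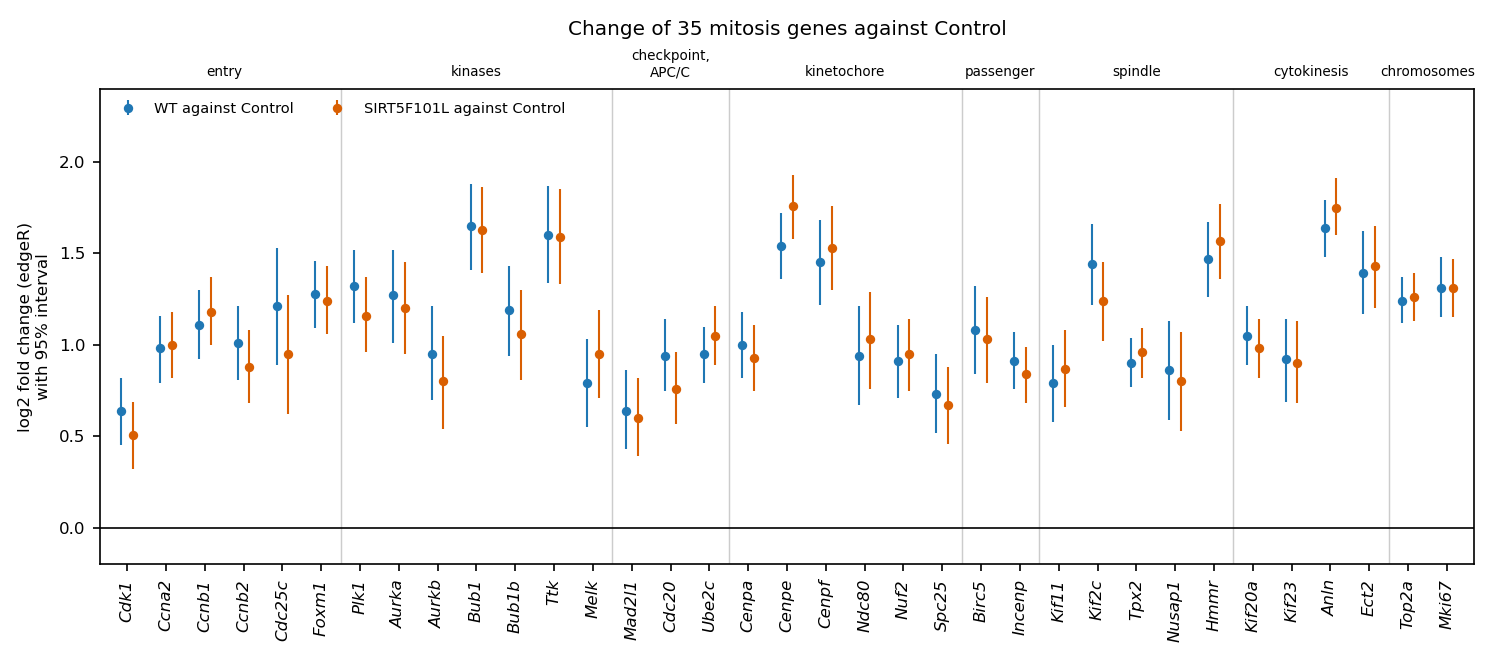
Log2 fold change against Control of the 35 tested genes in WT (blue) and SIRT5F101L (orange), with 95% intervals from edgeR, grouped by role. All intervals lie above 0, from a lowest bound of 0.32 to a highest of 1.93, and the smallest changes are those of Cdk1 and Mad2l1.

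Spindle genes had a median log2 fold change of 0.90 in WT and 0.96 in SIRT5F101L over 5 tested genes. Hmmr, which binds microtubules at the spindle poles, stood at 12.7, 11.4, 9.21 and 11.9 CPM in Control, 32.1, 31.3, 29.3 and 32.2 in WT, and 29.6, 37, 32.5 and 35.1 in SIRT5F101L (1.47 and 1.57, SE 0.10 each). Kif2c, a kinesin that takes microtubules apart at kinetochores, was at 8.56 ± 0.833, 23.2 ± 2.13 and 20.1 ± 1.9 CPM (1.44 and 1.24). These 2 genes had the largest log2 fold changes of the 5 in both comparisons. Tpx2, the activator of Aurora A on the spindle, was at 31.6, 59.1 and 61.4 CPM (0.90 and 0.96). Kif11, the kinesin that pushes the poles apart, was at 11.4, 19.7 and 20.9 CPM (0.79 and 0.87). Nusap1, a microtubule-bundling protein, was at 10, 18.2 and 17.5 CPM (0.86 and 0.80). Kif4 gave no value.

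Cytokinesis genes included Anln, anillin, the scaffold of the contractile ring and one of the most abundant of the 35. Anln stood at 36.4, 32.7, 33.5 and 28.9 CPM in Control, 103, 95.9, 102 and 108 in WT, and 101, 117, 109 and 117 in SIRT5F101L. Its change of 1.64 (SE 0.07) and 1.75 (SE 0.07) had the lowest edgeR adjusted p of the 35, 1.63e-13 and 5.01e-14. Ect2, an exchange factor that sets up the cleavage furrow, went from 8.62 ± 0.776 to 22.6 ± 2.15 and 23.2 ± 2.76 CPM (1.39 and 1.43). Kif20a, a kinesin of the central spindle, was at 15.9, 32.9 and 31.3 CPM (1.05 and 0.98). Over 29.3% of its exon bases Kif20a overlaps Cdc23 on the other strand, and Cdc23 was lower in both plasmid groups (-0.66 and -0.62). Matches to transcripts of other genes cover 34.73% of the longest Kif20a transcript and may be this same overlap. Kif23, the kinesin of the centralspindlin complex, was at 9.87, 18.7 and 18.4 CPM (0.92 and 0.90). Prc1 gave no value.

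Of the chromosome proteins, Top2a, the topoisomerase that untangles sister chromatids, was the most abundant member in Control. It stood at 44.3, 46.6, 45.4 and 44.7 CPM in Control, 110, 98.6, 105 and 115 in WT, and 106, 113, 106 and 109 in SIRT5F101L (1.24 and 1.26, SE 0.06 each). Mki67, the Ki-67 antigen that coats mitotic chromosomes and is used to count cycling cells, was at 33.7 to 38.4 CPM in Control. It was at 83.2 to 93.0 CPM in WT and 76.0 to 95.2 in SIRT5F101L, with a log2 fold change of 1.31 (SE 0.08) in both. Per kilobase of the longest transcript the order of Control levels was another: Cdc20, Ube2c and Top2a led with 10.7, 9.67 and 8.67 CPM per kb, and Cenpf, Cdc25c and Cenpe came last with 1.03, 1.20 and 1.32.

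The size of the rise was set beside level, length and promoter letters. Across the 35 genes Pearson's r between the log2 fold change and the log2 Control level was -0.18 in WT and -0.103 in SIRT5F101L, and with log2 transcript length it was 0.202 and 0.337. These describe genes of the same libraries, which are not independent. The 20 tested genes with TTTGAA in the window had a median log2 fold change of 1.21 in WT and 1.11 in SIRT5F101L. The 8 without it, Bub1 and Cenpe among them, had medians of 1.0 and 0.99. Both sets spanned nearly the same range, 0.64 to 1.64 and 0.64 to 1.65 in WT. The 15 tested genes with at least 2 CCAAT boxes had medians of 1.24 and 1.2, and the 13 with fewer had medians of 0.94 and 1.03, with ranges in WT of 0.64 to 1.65 and 0.64 to 1.64. These medians are given without a test.

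Whether the mutation altered these genes was asked by comparing SIRT5F101L with WT directly. None of the 35 was called by edgeR (adjusted p over all tested genes), where 0.0421% of all tested genes were called. At an unadjusted p under 0.05 there were 2 of 35, beside 1701 of the 14253 genes, and DESeq2 called 0 with 1 at that unadjusted p. The edgeR count at that unadjusted p was 5, beside 4088 of 14528 genes, without SIRT5F101L replicate 1, and 0, beside 944 of 14500, without SIRT5F101L replicate 2. It was 1 or 2 without any of the other 6 libraries. The log2 fold changes ran from -0.26 to 0.22 with a median of -0.02, beside -2.57e-05 over all tested genes, and 14 were above 0 and 21 below. Their 95% intervals reached from -0.56 to 0.39, so differences of that size in single genes are not shown to be absent.

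The 3 largest differences were in Cdc25c, Cenpe and Kif2c. None of them passed. Cdc25c had a log2 fold change of -0.26 (95% interval -0.56 to 0.04, edgeR adjusted p 0.464), with overlapping groups. Cenpe had one of 0.22 (0.05 to 0.38), with an unadjusted p of 0.0118 and an edgeR adjusted p of 0.363. It was the only one of the 35 whose libraries did not overlap, 32.1 to 39.3 CPM in SIRT5F101L against 29.2 to 31.5 in WT, where 4.02% of all tested genes did not overlap. Kif2c had one of -0.20 (-0.41 to -0.00), with an unadjusted p of 0.048 and an edgeR adjusted p of 0.414.

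The Cenpe call depended on 1 library. Without SIRT5F101L replicate 1 its log2 fold change was 0.26 and passed by edgeR (adjusted p 0.0264), in a fit that called 2212 of 14528 genes (15.2%). Leaving out any other library of these groups called 0 genes, and across the alternatives, DESeq2 included, adjusted p-values of Cenpe ran from 0.0264 to 0.743. With each library's trend on transcript length as an offset, chosen after seeing the data, the Cenpe difference was 0.11. Among the 35 genes, Pearson's r between log2 transcript length and the SIRT5F101L minus WT difference was 0.462, and Cenpe, with a longest transcript of 7910 bases, is one of the longest.

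**Figure D3:**
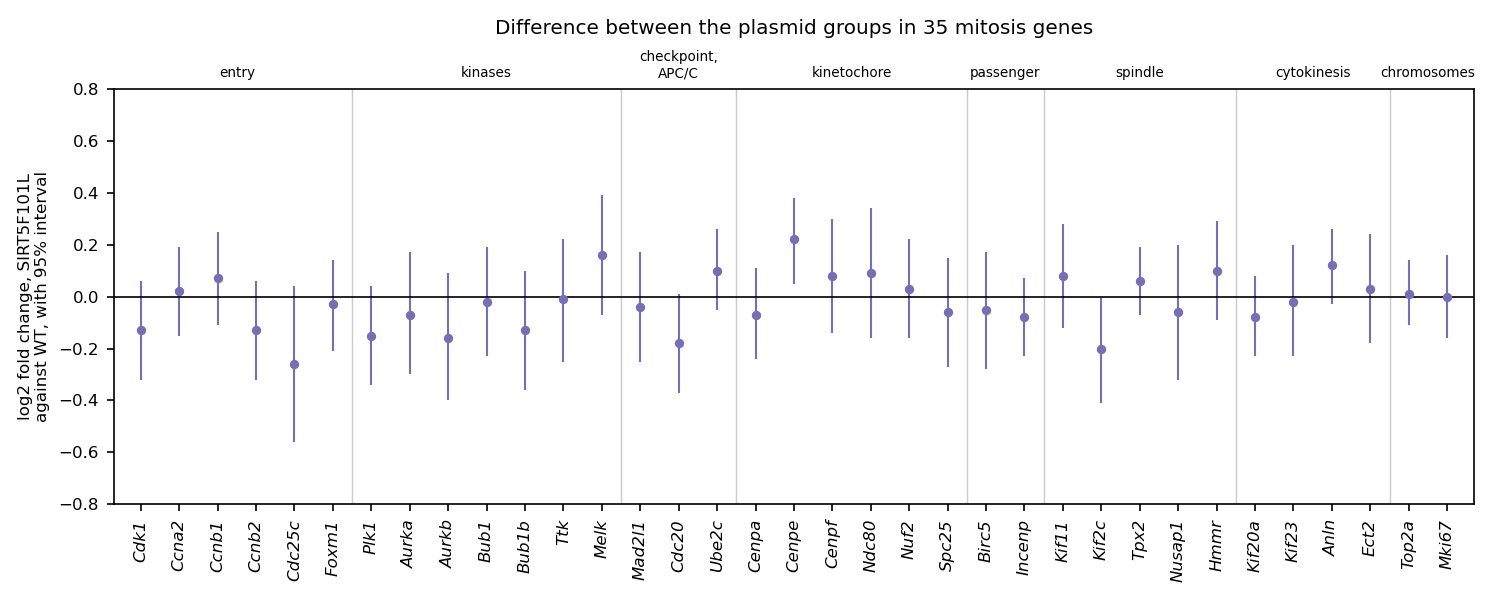
Log2 fold change of SIRT5F101L against WT for the 35 tested genes, with 95% intervals from edgeR, ordered by role. Values lie between -0.26 (Cdc25c) and 0.22 (Cenpe), and all intervals but those of Cenpe and Kif2c cross 0.

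Within the SIRT5F101L group, replicate 1 differed from replicates 2 to 4 by gene. Its log2 ratio to the mean of those replicates was 0.31 for Cdk1, 0.25 for Aurka and Cdc20 and 0.21 for Kif2c. It was -0.34 for Ect2, -0.32 for Cenpf, -0.29 for Mki67 and -0.19 for Cenpe. Across the 35 genes Pearson's r of this ratio with log2 transcript length was -0.623, a description of 1 library. Its summed level over the 37 genes, 1120 CPM, was within the range of its group. All 35 genes were called against Control without it, with a median log2 fold change of 0.99.

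**Figure D4:**
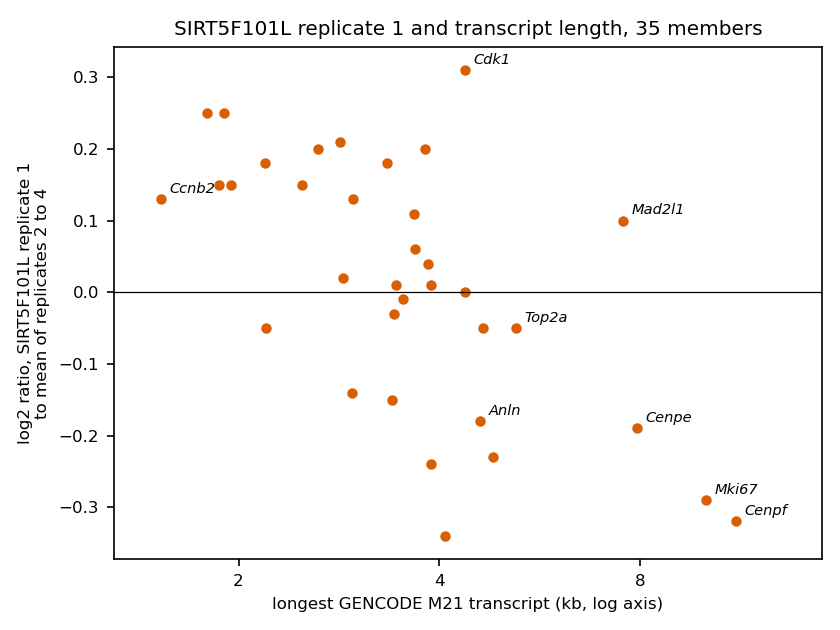
Log2 ratio of SIRT5F101L replicate 1 to the mean of replicates 2 to 4 against the longest GENCODE M21 transcript (kb, log axis), 1 point for each of the 35 tested genes. Short transcripts lie mostly above 0 and the longest, Cenpf and Mki67, lie at -0.32 and -0.29.

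Other genes of mitosis, taken from a list of 81 that are not among the 37, moved the same way for the most part. Of 76 tested, edgeR called 59 higher and 3 lower in WT, and 58 higher and 2 lower in SIRT5F101L, with median log2 fold changes of 0.76 and 0.71. Of all tested genes 28.7% were called higher and 28.1% lower in WT, against 30.0% and 30.7% in SIRT5F101L. The largest mean changes were in Depdc1b, which regulates mitotic progression and adhesion (0.824 ± 0.332, 3.62 ± 0.968 and 3.15 ± 0.724 CPM; 2.11 and 1.91), and Arhgap11a (14, 42.2 and 43.9 CPM; 1.59 and 1.65). Cenpp, a centromere protein, went the other way from 12.8 to 4.99 and 5.48 CPM (-1.36 and -1.22), as did Psrc1, a spindle protein (-0.32 and -0.47). Ska2 was called lower in WT (-0.46) and stood at -0.14 in SIRT5F101L without passing. Between the plasmid groups 0 of 76 were called, with 3 at an unadjusted p under 0.05.

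Without SIRT5F101L replicate 1, edgeR called 7 of these genes between the plasmid groups, in the fit that called 15.2% of all its tested genes, so the count does not set the list apart. Pttg1, Kif22, Cks2, Psrc1, Spc24 and Cenpw were lower in SIRT5F101L (-0.35, -0.54, -0.33, -0.23, -0.48 and -0.56), and Ckap5 was higher (0.21), with edgeR adjusted p-values from 0.00773 to 0.0477.

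Condensin compacts mitotic chromosomes, and 6 of its 8 subunits were called higher in both groups, among them Ncapg (1.29 and 1.29) and Ncaph (1.12 and 1.19). The exceptions were Ncaph2 (-0.17 and -0.22, called in both) and Smc4 (-0.24, called, and -0.11, not called). For condensin and cohesin alike, the share of all tested genes called higher was 28.7% in WT and 30.0% in SIRT5F101L. Of 11 tested genes of cohesin and its regulators, 7 were called higher in WT and 8 in SIRT5F101L, led by Esco2 (0.94 and 0.99) and Cdca5 (0.69 and 0.82), which set and protect cohesion in S phase.

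A list of 16 genes of the anaphase-promoting complex held 14 subunits, the co-activator Fzr1 and the ubiquitin-conjugating enzyme Ube2s. Neither Fzr1 (0.14 and 0.12) nor Ube2s (0.13 and -0.03) was called, and every call against Control was of a subunit. Of the 16, 2 were called higher and 9 lower in each comparison, where 28.1% of all tested genes were called lower in WT and 30.7% in SIRT5F101L, with median log2 fold changes of -0.28 and -0.32. The largest changes were in the small subunits Anapc13 (27.8, 17.7 and 15.6 CPM; -0.65 and -0.83) and Anapc11 (69.1, 42.1 and 40.7 CPM; -0.71 and -0.76).

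Of the regulators that bind late cell cycle promoters, 21 genes of the MuvB complex, B-MYB, the E2F and RB families and NF-Y were tested. In WT 10 were called higher and 3 lower, and in SIRT5F101L 12 were called higher and 3 lower, with medians of 0.26 and 0.25. Of all tested genes 28.7% were called higher and 28.1% lower in WT, and 30.0% and 30.7% in SIRT5F101L. The E2F repressors E2f7 (2.04, 4.75 and 5.19 CPM; 1.22 and 1.35) and E2f6 (37.1, 68.5 and 64.1 CPM; 0.89 and 0.79) changed most. Mybl2, B-MYB, rose less than Foxm1, from 5.64 ± 0.686 to 7.84 ± 0.649 and 7.37 ± 0.84 CPM (0.47 and 0.38, edgeR adjusted p 0.0046 and 0.0177).

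Of 14 tested genes of G1 control, 5 were called higher and 6 lower in WT and 3 and 6 in SIRT5F101L, beside 28.7% higher and 28.1% lower of all tested genes in WT and 30.0% and 30.7% in SIRT5F101L. Ccnd1, cyclin D1, which answers to growth signals, rose from 273 ± 19.4 CPM to 543 ± 14.9 and 565 ± 34 (1.0 and 1.05). Of the inhibitors of cyclin-dependent kinases, Cdkn1a, p21, fell from 461 ± 25.7 to 320 ± 13.8 and 302 ± 23 CPM (-0.53 and -0.61). Cdkn2a, which encodes p16 and ARF, fell from 186 ± 9.89 to 78.9 ± 4.69 and 67.0 ± 12.9 (-1.24 and -1.47). Cdkn1c, p57, had the largest fall, from 7.47 ± 0.961 CPM to 1.15 ± 0.5 and 0.917 ± 0.105 (-2.71 and -3.02). Another inhibitor, Cdkn2d, was higher in both (0.54 and 0.31). DNA replication genes had 25 called higher and 1 lower of 37 tested in WT, and 24 and 2 in SIRT5F101L, with medians of 0.46 and 0.42. The same shares of all tested genes, 28.7% and 28.1% in WT and 30.0% and 30.7% in SIRT5F101L, apply to these counts. Mcm10, which helps load the polymerases (1.08 and 1.12), and Pole, the catalytic subunit of the leading-strand polymerase (1.02 and 1.06), changed most. In none of these lists was a gene called between the plasmid groups by edgeR, with 0 to 5 genes per list at an unadjusted p under 0.05, beside 1701 of all 14253. The 5 were of the 11 cohesin genes, all 11 of which had a log2 fold change above 0 (median 0.14). Their summed level was 674, 785, 774 and 761 CPM in SIRT5F101L replicates 1 to 4 and 657 to 726 in WT, so replicate 1 alone lay within the WT range. Without it edgeR called 5 of them higher, Nipbl, Pds5a, Pds5b, Stag1 and Wapl (median of the 11 then 0.19), in the fit that called 15.2% of all genes. That fit also called 3 genes of the anaphase-promoting complex list lower (Anapc13, Cdc26 and Ube2s), Tfdp2 higher and Lin37 lower, and Rfc3 of DNA replication lower. In the G1 list it called 1 gene higher and 4 lower among Cdk4, Cdk6, Cdkn2a, Cdkn2c and Cdkn2d, and it called 0 condensin genes.

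**Figure D5:**
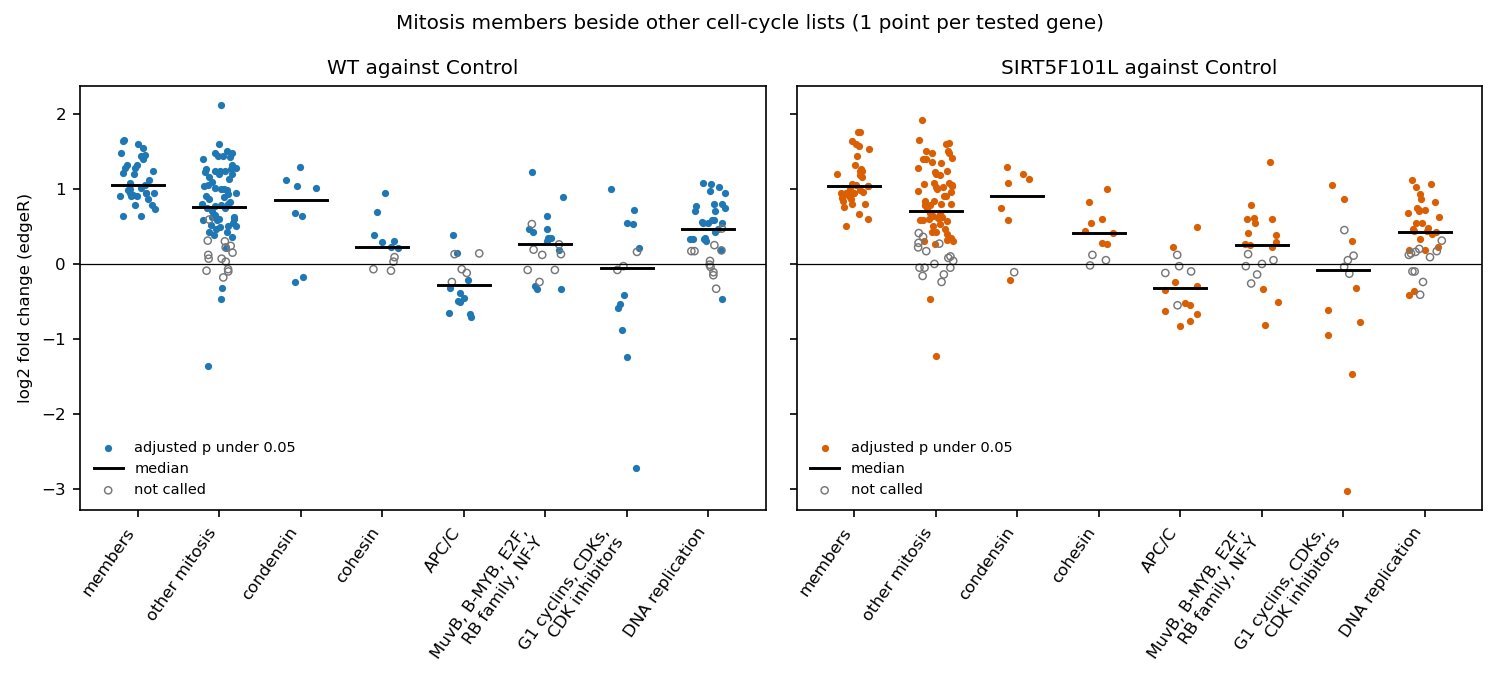
Log2 fold changes against Control of the 35 mitosis genes and of other cell-cycle lists, in WT (left) and SIRT5F101L (right); each point is a tested gene, filled when called by edgeR, and bars are medians. The medians run from 1.05 and 1.03 in the mitosis genes to -0.28 and -0.32 in the list of the anaphase-promoting complex.

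Cell-type markers also changed, and their mean summed levels were lower in both plasmid groups than in Control for every type but the endothelial. Summed over 11 chondrocyte markers the level was 9140 to 11500 CPM in Control, 2820 to 2930 in WT and 2290 to 2540 in SIRT5F101L, and 9 of 11 were called lower in each, where 28.1% of all tested genes were called lower in WT and 30.7% in SIRT5F101L. Acan and Hapln1, of the proteoglycan aggregate, stood at 0.47 and 0.25 in WT, both called higher. In SIRT5F101L Hapln1 was called higher at 0.18, and Acan stood at 0.10 without passing. Fibroblast markers summed to 17300 to 20400, 6120 to 6930 and 5970 to 6920 CPM. Of 6 tested, 4 were called lower and 2 higher in each. Of all tested genes 28.7% were called higher in WT and 30.0% in SIRT5F101L. The fibroblast markers went both ways, with log2 fold changes from -4.61 to 3.02 in WT and from -4.69 to 3.07 in SIRT5F101L. Their sum thus does not stand for each marker. Macrophage markers summed to 177 to 213, 136 to 154 and 143 to 185 CPM, with 8 of 9 tested called lower in WT and 7 of 9 in SIRT5F101L. Cd14 was the 1 macrophage marker called higher (2.05 and 2.27), and Itgam was listed at 0. Osteoblast markers summed to 18 to 24.8, 4.11 to 4.78 and 3.51 to 5.21 CPM. Endothelial markers summed to 6.73 to 7.56, 7.25 to 9.80 and 8.05 to 9.97 CPM. Of 5 tested, 1 was called higher in each comparison, beside 28.7% and 30.0% of all tested genes. In each comparison 3 of the 5 had a log2 fold change below 0, with medians of -0.3 in WT and -0.05 in SIRT5F101L. Skeletal muscle markers summed to 5.79 to 6.64, 2.11 to 3.64 and 1.53 to 3.10 CPM, and the 1 tested was called lower in both (-1.17 and -1.54). Erythroid markers summed to at most 0.655 CPM in Control and to 0 in the plasmid groups, with Alas2 at 0 throughout. The part of these shifts in the rise of the mitosis genes was not tested.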

How the data were processed

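Whole-number counts per Ensembl gene ID were deposited by the authors for each of 12 libraries. The submitters' processing notes name HISAT2 (2.2.1), HTSeq (2.0.2), FastQC (0.11.9), DESeq2 (1.38.3) and the build GRCm39, and per the labels' protocols the reads were 150 bp paired-end from poly(A) RNA. The annotation and the strand setting are not given in the sources used here. No 2 libraries were identical.

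Counts were tested with edgeR (4.0.16, R 4.3.3): TMM scaling, the default expression filter by group, 1 quasi-likelihood fit over the 12 libraries (3 group means), 2-sided tests and Benjamini-Hochberg adjustment over the 14253 genes kept. The biological coefficient of variation was 9.18%. Standard errors were taken as |log2 fold change| / √F. CPM intervals and floors would cover counting error only, and none is given for group means. Alternatives were RLE and upper-quartile scaling, library totals, no filter beyond 1 count, a mean of at least 1 CPM, DESeq2 (1.42.0), fits of the 8 libraries compared, a robust prior, and leaving out each library. An offset for transcript length (loess span 0.5) was added after seeing the data.

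Symbols were available for 52029 of 57010 IDs. Transcript lengths, overlaps and matches to other genes come from GENCODE M21 and promoters from RefSeq. Both are on another build than the counts, so no coordinates of theirs were joined to the counts. All 37 genes are named, and for SIRT5F101L against WT the 3 with the largest difference. For each other list the 2 genes with the largest mean change against Control are named, plus Cdkn1a, Cdkn2a, Ccnd1 and Mybl2. Genes named as exceptions within a list, the single markers and the genes called only without 1 library were chosen after their values were seen. The members and lists were chosen with earlier results of these data known.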

Additional observations from a re-analysis of the deposited data

Results flagged for a closer look

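In 108 screens (35 genes and their sum in 3 groups of 4), 7 values lay far from the other 3 libraries of their group by Dixon's ratio, where chance gives about 1 in 20, or 5.4. SIRT5F101L replicate 1 was high in Cdk1 (56.8 CPM, others 45.3 to 46.6) and low in Cenpf (27.8, others 34.1 to 35.3). SIRT5F101L replicate 4 was high in Plk1 (25.6, others 22.5 to 22.8) and low in Ttk (11.9, others 12.6 to 12.7). SIRT5F101L replicate 2 was high in Bub1 (19.7, others 18.3 to 18.4). WT replicate 4 was low in Aurkb (13.7, others 16.3 to 16.7) and high in Melk (10.8, others 9.23 to 9.42).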

How the results depend on the processing

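All 1190 alternative values of the 70 changes against Control (35 genes, 2 comparisons) kept their direction and stayed called, with a lowest log2 fold change of 0.38 and a highest adjusted p of 0.00603 by edgeR or DESeq2. The count called was 35 in every alternative. The median log2 fold change was 1.0 in WT and 0.98 in SIRT5F101L with upper-quartile scaling, and 1.13 and 1.11 with library totals. Leaving out 1 library gave 1.02 to 1.07 in WT and 0.96 to 1.07 in SIRT5F101L. Between the plasmid groups, leaving out 1 library gave 0 to 1 genes called of the 35, 0 to 7 of the other mitosis genes, and a median of -0.04 to 0.01. The highest counts came without SIRT5F101L replicate 1, where Cenpe passed (0.26). The cause was not tested. No paired analysis was possible because the labels give no replicate numbers. Those used here follow accession order and only name the libraries. Depth limits Cdc25c most, with 42 counts in 1 Control library.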
